A study of Mus musculus with 2 samples.

Results

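Conventional dendritic cells (DCs) were compared in 2 states, called migratory and non-migratory here after the genes that set them. The gates were chosen by measured counts of unique molecular identifiers (UMIs), which count captured RNA molecules. A migratory cell held at least 3 UMIs of Fscn1 and at least 3 of Ccr7. A non-migratory cell held none of either and at least 3 UMIs of Sirpa, Xcr1 and Clec9a in sum. Both gates left out cells with over 1 UMI of Prdm16, over 1 of Cd3e, or 10 or more of C1qa, C1qb and C1qc together. The migratory gate took 642 cells and the non-migratory gate 3228, of 15480 cells that passed the filters in the series.

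All cells came from untreated mice, 15 days old, of the Gm38411-iCre-hCD2 reporter genotype, so both gates carry the reporter alleles. Cells of the CD3-B220-CD11c+MHC-II+ sort gate were taken from mesenteric lymph nodes and from the lamina propria of the small intestine, and were sequenced in 1 droplet run. Antibodies named hashtags 2, 4, 5, 6, 8 and 9 each marked 1 of 3 biological replicates per tissue. The labels do not tie a hashtag to a tissue, so hashtags are not read as tissues here, and whether a replicate was 1 animal is not stated. Each hashtag holds both gates, and the gates were compared within hashtags.

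Conventional DCs take up antigen in tissues and, once mature, travel along lymph vessels to the lymph node, where they meet T cells. CCR7 is the chemokine receptor that guides this journey, and fascin, encoded by Fscn1, bundles actin in the long processes of mature DCs. Maturation in general is known to come with less uptake, more display of ligands for T cells and new cytokines, in part through NF-kB, a family of transcription factors released by inhibitor degradation or by processing of the p100 precursor. Conventional DCs fall into cDC1, known for cross-presentation and marked by XCR1 and CLEC9A, and cDC2, marked by SIRPA. Fscn1 lies on mm10 chr5:142960343-142973185, plus strand, and Ccr7 on chr11:99144196-99155077, minus strand.

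The promoters below come from the list of NF-kB subunits, regulators and targets, 21 of whose 29 tested members were higher in migratory cells, and are shown because they hold a match to a kB motif. Each runs from 250 bases before to 50 bases after a RefSeq start site (GRCm38.p6), on the strand of the gene, and capitals mark a match to GGGNNTTTCC, a form of the kB motif, or to its reverse complement GGAAANNCCC. Nfkb2 encodes p100 (chr19:46305445-46305744, plus strand), Rel the subunit c-Rel (chr11:23770920-23771219, minus), Nfkbia the inhibitor IkB-alpha (chr12:55492598-55492897, minus), Traf3 an adaptor that restrains the p100 pathway (chr12:111166120-111166419, plus) and Tnfaip3 the ubiquitin-editing inhibitor A20 (chr10:19015361-19015660, minus).
Nfkb2: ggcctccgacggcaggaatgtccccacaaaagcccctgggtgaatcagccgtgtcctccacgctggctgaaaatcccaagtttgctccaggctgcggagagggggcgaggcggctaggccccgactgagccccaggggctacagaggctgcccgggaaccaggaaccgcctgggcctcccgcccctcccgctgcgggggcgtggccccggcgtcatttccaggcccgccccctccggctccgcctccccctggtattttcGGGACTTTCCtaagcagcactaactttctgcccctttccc
Rel: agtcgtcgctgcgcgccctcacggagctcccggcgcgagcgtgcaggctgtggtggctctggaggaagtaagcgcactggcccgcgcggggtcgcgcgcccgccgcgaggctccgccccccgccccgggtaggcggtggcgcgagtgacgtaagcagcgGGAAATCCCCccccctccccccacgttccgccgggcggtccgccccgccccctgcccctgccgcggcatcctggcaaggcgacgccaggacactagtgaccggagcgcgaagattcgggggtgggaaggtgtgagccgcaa
Nfkbia: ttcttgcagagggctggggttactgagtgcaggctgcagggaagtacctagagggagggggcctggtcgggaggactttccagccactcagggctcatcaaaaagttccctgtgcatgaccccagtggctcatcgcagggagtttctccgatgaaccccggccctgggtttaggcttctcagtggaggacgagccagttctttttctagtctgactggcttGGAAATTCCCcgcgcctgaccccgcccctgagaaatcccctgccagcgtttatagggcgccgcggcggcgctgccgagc
Traf3: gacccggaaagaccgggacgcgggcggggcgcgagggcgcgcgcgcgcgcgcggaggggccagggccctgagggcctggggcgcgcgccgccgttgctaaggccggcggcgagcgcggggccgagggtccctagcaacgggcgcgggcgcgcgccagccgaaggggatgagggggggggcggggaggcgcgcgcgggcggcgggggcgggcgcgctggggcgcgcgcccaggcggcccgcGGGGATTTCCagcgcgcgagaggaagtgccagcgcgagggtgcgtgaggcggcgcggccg
Tnfaip3: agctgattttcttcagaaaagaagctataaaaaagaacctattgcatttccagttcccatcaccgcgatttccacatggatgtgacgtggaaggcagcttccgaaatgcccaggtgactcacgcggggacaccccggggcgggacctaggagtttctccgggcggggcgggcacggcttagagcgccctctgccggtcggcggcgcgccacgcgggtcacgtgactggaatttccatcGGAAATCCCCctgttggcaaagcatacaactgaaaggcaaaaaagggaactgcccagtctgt

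Of the 21 higher members, 17 had a promoter in the table, and 6 of these 17 genes held a match in at least 1 promoter (8 of 21 promoters): the 5 above and Traf2, an adaptor of tumour necrosis factor receptors. Nfkb2 held a match at each of 3 listed start sites, of which 2 windows overlap and share the same match. Of the tested members that were not called, 1 of 6 genes with a promoter held one (1 of 11 promoters). Over all 32851 promoters of the same length 1.63% held one, and over the 11857 promoters of tested genes 1.80%, or 2.18% of the tested genes. A match describes letters and is not evidence of binding.

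Between 14 and 201 cells per hashtag met the migratory gate. In hashtags 2, 4 and 5 the migratory share of cells was 8.48%, 11.2% and 10.7%. In hashtags 6, 8 and 9 it was 1.81%, 0.550% and 1.32%. The non-migratory share ran from 17.2% to 28.1%. These shares follow from the gate and from where its thresholds fall, and are a description. Median depth was 10124 to 15627 UMIs per migratory cell and 7966 to 15884 per non-migratory cell; migratory cells were the deeper in hashtags 2, 4, 5 and 9 and the shallower in hashtags 6 and 8. Hashtag 8, with 14 migratory cells, gives the shallowest sum, 212371 UMIs. Of the cells in neither gate, 719 were left out by Prdm16, Cd3e or the C1q genes, and 3525 had neither Fscn1 nor Ccr7 and under 3 UMIs of Sirpa, Xcr1 and Clec9a.

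**Figure D1:**
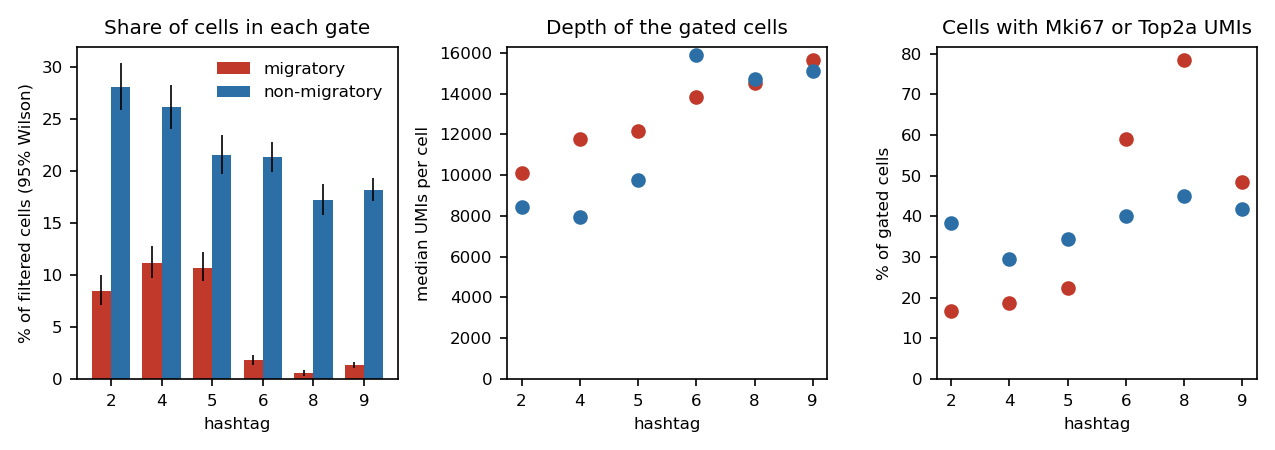
Share of filtered cells in each gate with its 95% Wilson interval (left), median UMIs per gated cell (middle) and share of gated cells with any UMI of the proliferation genes Mki67 or Top2a (right), for each of the 6 hashtags. Migratory cells made up 0.550% to 11.2% of cells, and those with Mki67 or Top2a were 16.7% to 22.4% of them in hashtags 2, 4 and 5 against 48.4% to 78.6% in hashtags 6, 8 and 9.

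The 2 genes that set the migratory gate differed by hashtag. In the migratory sums Fscn1 stood at 1746, 1932, 1704, 987, 562 and 789.9 CPM (UMIs scaled to library size) in hashtags 2, 4, 5, 6, 8 and 9. Ccr7 stood at 579, 563, 621, 1937, 1672 and 1969 CPM in the same order. Fscn1 was thus highest in hashtags 2, 4 and 5 and Ccr7 in hashtags 6, 8 and 9. Cells with at least 3 UMIs of Ccr7 and none of Fscn1, which fall in neither gate, were 0.309% to 1.39% of cells in hashtags 2, 4 and 5 and 22.2% to 24.9% in hashtags 6, 8 and 9. All CPM here are scaled by the trimmed mean of M-values (TMM), in the order of hashtags 2, 4, 5, 6, 8 and 9, and a level is compared within a gene, not between genes.

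The conventional DC label was checked on markers that the rule did not use. The sum of 10 conventional DC markers was 9083 to 23741 CPM of total UMIs in migratory and 17576 to 25546 in non-migratory sums. Near-empty droplets held the same markers at 20395 CPM, within this range, so the sum does not set the gates apart from free RNA. Zbtb46, a transcription factor of the conventional lineage, stood at 276, 284, 259.8, 339, 286 and 256 CPM in migratory and 243, 247, 209.9, 164, 173 and 173 in non-migratory sums. It was called higher in migratory cells, by 0.50 ± 0.15 (SE, edgeR adjusted p = 0.0218) on the log2 scale, a call that is lost in 8 of 22 alternative fits. Flt3, the receptor for the DC growth factor FLT3 ligand, was 460.5, 414, 469, 284, 69.0 and 283 against 256, 256, 237, 140.5, 142 and 141 CPM, and its log2 difference of 0.67 ± 0.24 (SE, edgeR adjusted p = 0.0437) was lost without any of hashtags 2, 4, 5, 6 or 9 and against cDC1 cells. Hashtag 8 was the exception among its pairs, with a lower level in migratory cells.

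Markers of other cells differed between the gates for some types. The 10 macrophage markers summed to 71.5 to 128 CPM in migratory and 109 to 237 in non-migratory cells, and none was at 0. The 9 T cell markers summed to at most 37.8 CPM in migratory and 19.7 in non-migratory cells, the highest being in hashtag 2 and hashtag 5. The 7 plasmacytoid DC markers were 271 to 496 CPM in migratory against 197 to 314 in non-migratory cells, with Cox6a2 at 0 in the former. The 8 markers of innate lymphoid cells were 284 to 438 against 185 to 265 CPM, with Il22 at 0 in both gates. The 7 natural killer markers summed to 42.8 to 137 CPM in migratory and 58.9 to 87.6 in non-migratory cells. In hashtags 6, 8 and 9 they were 120, 137 and 108 against 58.9, 62.5 and 64.0 CPM, and in hashtags 2, 4 and 5 lower in migratory cells. Of these markers 6, Ncr1 and Gzma among them, were at 0 in migratory cells, so the migratory sum rests on 1 marker. The 7 B cell markers were 16.3 to 43.0 CPM in migratory and 5.37 to 23.1 in non-migratory cells. In hashtag 9 they were 43.0 against 5.37. The 6 markers of Prdm16-positive RORgt DCs were 54.5 against 5.46 CPM in hashtag 6, 14.1 against 4.69 in hashtag 8 and 25.2 against 6.59 in hashtag 9, and nearly level in hashtags 2, 4 and 5. Both gates cap the C1q genes, Cd3e and Prdm16, which are among the macrophage, T cell and RORgt DC markers. The sums of those types thus follow in part from the gates. Near-empty droplets held the same marker sets at 608, 68.4 and 58.7 CPM, above every sum of either gate. The part of other cell types in the results was not tested.

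The non-migratory gate is a mix. In each hashtag 39.3% to 54.4% of its cells held at least 3 UMIs of Sirpa and 41.9% to 57.7% at least 3 of Xcr1 and Clec9a in sum. Of the migratory cells 11.05% to 43.8% reached 3 UMIs of Sirpa, the highest share being in hashtag 9, and at most 4.69% reached 3 of Xcr1 and Clec9a. Sirpa stood at 77.0 to 154 CPM in migratory and 137 to 226 in non-migratory sums, Xcr1 at 4.93 to 22.4 and 152 to 255, and Clec9a at 0 to 16.3 and 242 to 308; the gate sets these values, so they carry no test. For each gene that separates cDC1 from cDC2, fewer cells of a subset and less RNA per cell cannot be told apart in these sums. Values against the 1342 non-migratory cDC1 cells (Sirpa at 0) and the 1328 cDC2 cells (Xcr1 and Clec9a at 0) alone are therefore given for the gene lists and genes whose call or direction they change; both use the same migratory libraries.

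Cells just inside and outside the gate show what the threshold does, again as a description. Socs2 stood at 419 CPM of total UMIs in the 163 migratory cells whose lower gate gene was at exactly 3 UMIs, at 261 in the 313 cells whose lower gene was at 2, at 62.5 in the 1097 cells at 1, and at 3.71 in the non-migratory gate. Ccl22 followed the same order, with 413, 315, 72.7 and 12.2 CPM. Ccl5, at 1821, 1184, 237 and 66.8 CPM, did the same. For these 3 genes the levels step down across the threshold without a gap. Cd274 did not follow, at 544, 549, 639 and 287 CPM. All these threshold values pool cells over hashtags, and Cd274 differed by hashtag. Its TMM-scaled migratory level was 429.5 to 462 CPM in hashtags 2, 4 and 5 and 782 to 1125 in hashtags 6, 8 and 9. Within hashtags it was higher in the migratory gate in 6 of 6 pairs. The part of the hashtag mix in the pooled order was not tested.

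Of 12013 genes counted, 2275 (18.9%) were higher and 2744 (22.8%) lower in migratory cells at an edgeR adjusted p below 0.05. By at least 2-fold, 1483 (12.3%) were higher and 1567 (13.0%) lower. In all 6 pairs the sign was the same for 1722 of the higher and 1926 of the lower genes. Signs here and in the choice of genes to name were read with 0.5 UMIs added to each count. In the shallow migratory sum of hashtag 8 this can score a gene without UMIs as higher. Itgb8 and Spib, each at 0 against 1.49 CPM there, were scored at 0.64, so the count of higher genes includes such pairs. The median log2 fold change of all genes was -0.087, and scaling by total UMIs in place of TMM, chosen after the data had been seen, moved it by a further -0.179. All fold changes below are log2 values of migratory over non-migratory cells, from a fit of n = 6 pairs. The standard error (SE) is the absolute log2 fold change divided by the square root of the test's F statistic. It is thus not the standard error of the 6 paired differences themselves. Adjusted p values are Benjamini-Hochberg values of edgeR's quasi-likelihood test.

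**Figure D2:**
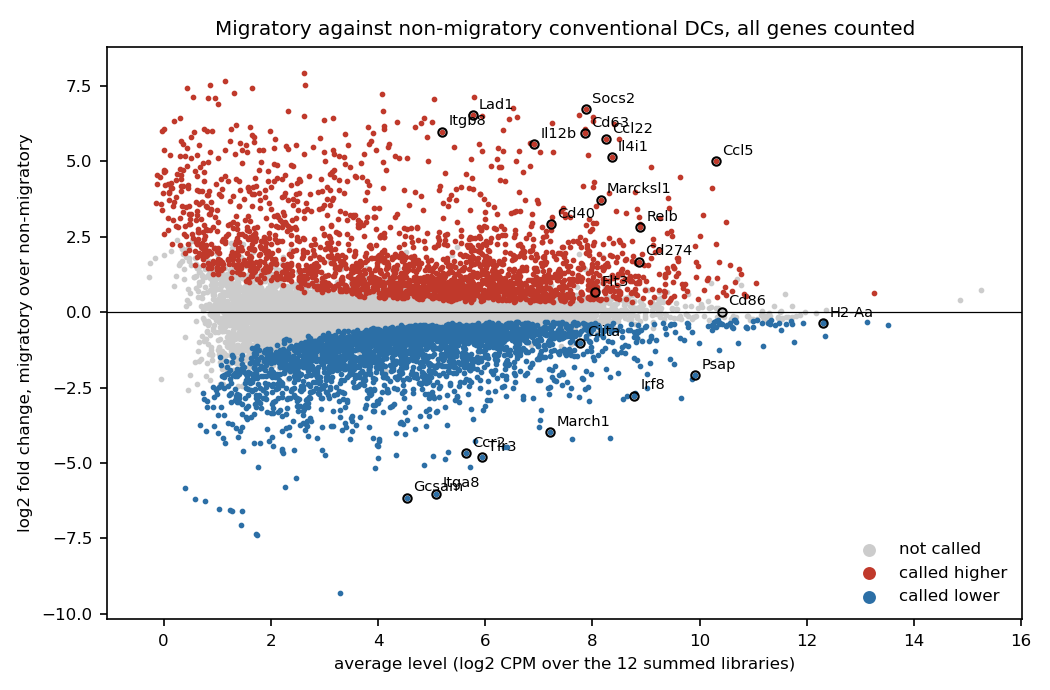
Log2 fold change of migratory over non-migratory cells against the average level in log2 CPM, 1 point per gene counted, coloured by the call at an adjusted p below 0.05. Socs2 (6.73), Cd63 (5.92) and Ccl5 (5.00) lie far above 0, Cd86 (0.01) on it, and March1 (-3.98), Tlr3 (-4.81) and Gcsam (-6.15) far below.

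By group, the largest shares of higher members were in NF-kB genes (21 of 29 tested), class I presentation (15 of 22), feedback and tolerance-linked genes (15 of 23), T cell ligands (17 of 28) and survival genes (14 of 23). The largest shares of lower members were in cDC1 genes (17 of 19), class II presentation (12 of 17), uptake receptors (18 of 29), cell cycle genes (21 of 34) and cDC2 genes (13 of 24). Only the non-migratory gate asks for Sirpa, Xcr1 or Clec9a, so the counts of cDC1 and cDC2 genes follow in part from the gates. Against cDC2 cells alone 3 of 16 cDC1 genes were lower, and against cDC1 cells alone 4 of 22 cDC2 genes. Over all genes the shares were 18.9% and 22.8%. Against cDC1 cells alone 2682 of 10912 genes were higher and 2670 lower, and against cDC2 cells alone 1762 of 10622 and 1994. Hashtags 2, 4 and 5 alone gave 3503 higher and 3642 lower of 11569, and hashtags 6, 8 and 9 alone 1308 and 1171 of 10804. Without cells that held Mki67 or Top2a 2216 of 10881 were higher and 2372 lower. A list count near these shares, such as 10 of 44 cytoskeletal genes lower, does not set that list apart. Without hashtag 8 the larger count of each of the 22 lists moved by less than 1.5 times.

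**Figure D3:**
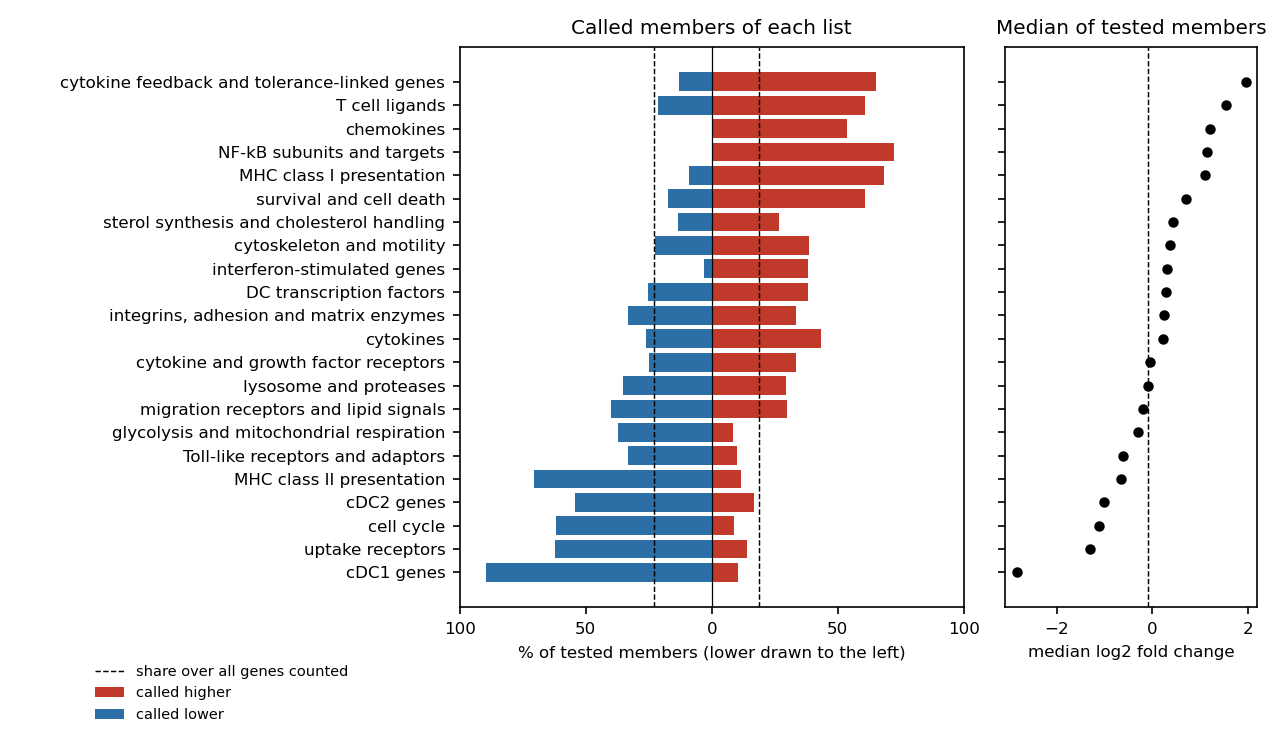
Share of tested members of each gene list called higher (right) or lower (left), with dashed lines at 18.9% and 22.8% over all genes counted, and the median log2 fold change of tested members with a dashed line at the median of all genes, -0.087. Medians ran from -2.84 for cDC1 genes, a list tied to genes that set the non-migratory gate, to 1.94 for feedback and tolerance-linked genes.

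Chemokines were among the most changed products. Of 13 tested, 7 were higher and none lower by edgeR's quasi-likelihood test, with a median of 1.21. At an unadjusted p below 0.05 it gave 2 lower members, and DESeq2 gave 1. In hashtags 6, 8 and 9 alone 6 of 12 were higher and 4 lower, with a median of 0.61. Ccl22 and Ccl17 encode ligands of CCR4, a receptor of regulatory and helper T cells. Ccl22 stood at 752, 1089, 882, 145, 237 and 494 CPM in migratory cells. In non-migratory cells it stood at 4.67, 4.22, 4.15, 15.0, 16.9 and 19.3 CPM. The groups did not overlap, and the difference was 5.72 ± 0.75 (SE, edgeR adjusted p = 0.000332). Hashtags 2, 4 and 5 had both the higher migratory and the lower non-migratory levels. Ccl17 was 159.6, 523, 272, 45.7, 24.7 and 172 CPM against 2.43, 2.50, 5.60, 10.6, 9.28 and 8.42, a difference of 4.64 ± 0.75 (SE, edgeR adjusted p = 0.00105). Ccl5, a chemokine that attracts T cells, was 3726, 2692, 3557, 2491, 1346 and 883 CPM against 137, 98.3, 119.7, 36.2, 49.95 and 32.8. Its difference of 5.00 ± 0.21 (SE, edgeR adjusted p = 6.39e-07) had an SE below those of Ccl17 and Ccl22. Cxcl1, a neutrophil attractant, was also higher in migratory cells (2.46 ± 0.40 SE, edgeR adjusted p = 0.0011).

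**Figure D4:**
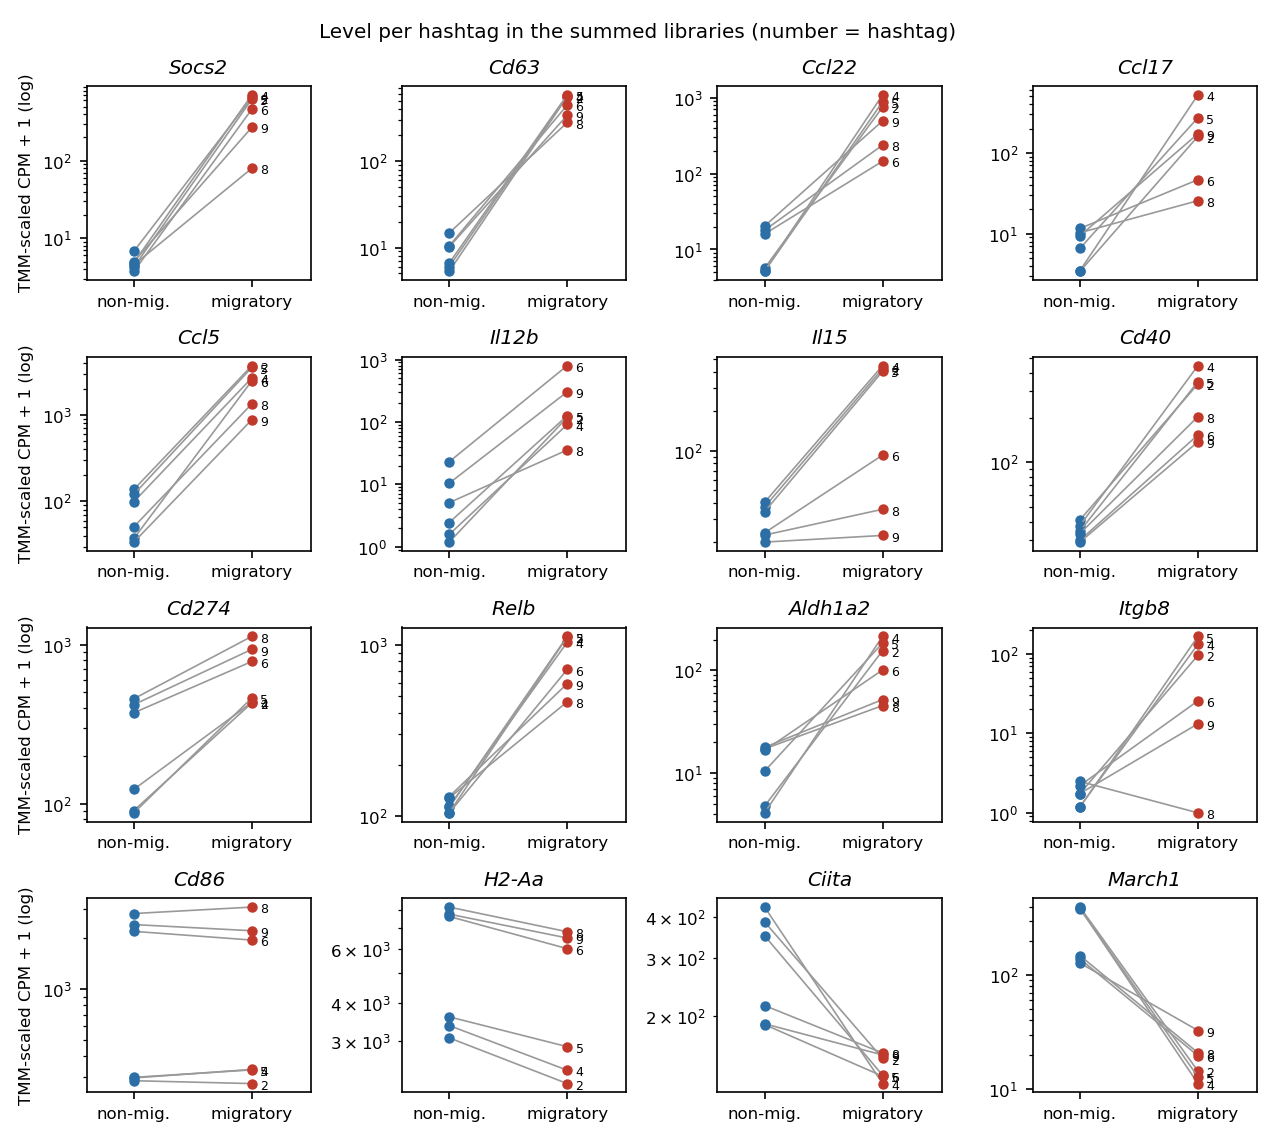
Level of 16 genes in each hashtag's summed non-migratory (left, blue) and migratory (right, red) cells as TMM-scaled CPM plus 1 on a log axis, lines joining the gates of 1 hashtag. Socs2 to Aldh1a2 rise in every hashtag and Itgb8 falls to 0 UMIs in hashtag 8, while Cd86 stays level and H2-Aa, Ciita and March1 fall in all 6.

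The share of cells with a UMI tells how widely a gene was found. With each cell thinned to 3000 UMIs, which left out 6 migratory and 90 non-migratory cells below that depth, Ccl22 was found in 50.8% of migratory and 2.84% of non-migratory cells (unthinned 68.4% and 9.54%). Ccl5 was found in 78.5% and 13.1% (unthinned 89.1% and 30.7%), and Ccl17 in 20.4% and 1.47% (unthinned 35.8% and 3.87%). These shares, and those of single genes below, pool cells over hashtags. Before thinning, hashtags 2, 4 and 5 gave 508 of 642 migratory and 1243 of 3228 non-migratory cells. By hashtag the migratory share was 23.2% to 60.7% for Ccl22, 28.6% to 89.5% for Ccl5 and 7.14% to 29.8% for Ccl17. The non-migratory share was 1.24% to 3.89%, 6.19% to 24.4% and 0.746% to 2.09%. In each hashtag all 3 were found in a larger share of migratory than of non-migratory cells. RNA outside cells gives UMIs in any cell, and in near-empty droplets Ccl5 stood at 257 CPM, Ccl22 at 65.2 and Ccl17 at 28.2, each above every non-migratory sum, so the non-migratory shares may hold background.

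Among cytokines 10 of 23 were higher and 6 lower (median 0.22, and -0.17 in cells of 3000 to 15000 UMIs). Against cDC2 cells alone 5 of 21 were higher and 6 lower, against cDC1 cells alone 12 of 20 and 3. Il12b encodes the p40 subunit shared by IL-12 and IL-23. It stood at 118, 89.9, 125, 798, 34.5 and 303 CPM in migratory and 0.187, 0.576, 1.44, 22.01, 4.08 and 9.42 in non-migratory cells (5.57 ± 0.50 SE, edgeR adjusted p = 3.84e-05). Hashtags 6 and 9 had the highest migratory levels, and the thinned share of cells with a UMI was 12.4% against 1.18% (unthinned 18.8% and 2.38%). By hashtag the thinned shares were 4.84% to 39.3% and 0% to 2.48%. Il23a, the partner subunit of IL-23, was lower at -1.36 ± 0.43 (SE, edgeR adjusted p = 0.0295), on 0 to 4.93 CPM in migratory cells, and lost the call in 5 of 6 fits that left out a hashtag. Il15, a growth factor of memory CD8 T and natural killer cells, was 424, 447, 404, 91.4, 34.5 and 21.4 CPM against 36.0, 39.2, 33.0, 22.4, 21.5 and 18.9. The groups overlapped: the step was large in hashtags 2, 4 and 5 and small in hashtag 9, and the fitted difference was 2.50 ± 0.49 (SE, edgeR adjusted p = 0.00298). Il6, Lta and Tgfb2 were also higher (3.52, 4.68 and 4.14; edgeR adjusted p = 0.00347, 0.000104 and 0.000654) at no more than 24.7 CPM in any sum, and Lta and Tgfb2 had no UMI in the migratory cells of hashtag 8. Il16, a chemoattractant cytokine, fell (-3.99 ± 0.45 SE, edgeR adjusted p = 0.00013), as did Tnfsf13b, the B cell survival factor BAFF (-2.15 ± 0.39 SE, edgeR adjusted p = 0.00203), whose call was lost against cDC2 cells (-1.37, edgeR adjusted p = 0.119).

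Many genes of the T cell ligand list, which also holds receptors such as Tnfrsf4 and Tnfrsf9, rose. Of 28, 17 were higher and 6 lower, with a median of 1.53. Against cDC2 cells alone 12 of 27 were higher and 4 lower (median 0.74), and against cDC1 cells alone 18 of 26 and 5 (median 2.85). Cd40, the receptor for CD40 ligand of helper T cells, was 336, 446, 348, 152, 202 and 137 CPM against 40.1, 36.7, 33.6, 29.0, 32.3 and 28.2 and did not overlap between gates (2.90 ± 0.21 SE, edgeR adjusted p = 1.01e-05). Cd274, encoding the inhibitory ligand PD-L1, was 432, 429.5, 462, 782, 1125 and 932 against 122, 89.7, 86.7, 372, 456 and 418 CPM. It rose in 6 of 6 pairs (1.67 ± 0.20 SE, edgeR adjusted p = 0.000219), although the non-migratory level of hashtag 8 exceeded the migratory level of hashtags 2 and 4. Against cDC2 cells alone its difference was 0.66 and missed the threshold (edgeR adjusted p = 0.0516), against 4.00 over cDC1 cells.

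Cd86 and Cd80, the classical costimulatory pair, did not follow. Cd86, a ligand of CD28, stood at 273, 331, 329, 1950, 3063 and 2215 CPM in migratory and 284, 295, 297, 2197, 2804 and 2411 in non-migratory cells. The hashtags differed from each other far more than the gates, and the fitted difference was 0.01 ± 0.10 (SE, edgeR adjusted p = 0.928); in cells of 3000 to 15000 UMIs it was -0.59 with an adjusted p of 0.0376. Cd80, the other CD28 ligand, was 109, 104, 79.8, 588, 641 and 447 against 80.3, 77.5, 73.3, 288, 344 and 308 CPM. It was called higher (0.58 ± 0.15 SE, edgeR adjusted p = 0.0108), but the value was -0.02 against cDC2 cells and 1.55 against cDC1 cells, and -0.06 in cells of 3000 to 15000 UMIs. Cd83, a maturation marker that stabilises surface class II and CD86, was 808, 876, 925, 1779, 1909 and 1761 against 213, 182, 278, 1679, 2029 and 1863 CPM. It was higher in hashtags 2, 4, 5 and 6 and missed the threshold (0.97 ± 0.35 SE, edgeR adjusted p = 0.051), which it passed without hashtag 6, 8 or 9 and with total-UMI scaling.

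Genes of the tumour necrosis factor and receptor families rose most in this group. Tnfrsf4, which encodes OX40, stood at 167, 175, 194, 115, 64.1 and 46.9 CPM against 1.12, 1.73, 1.08, 1.75, 0.928 and 0.917 (6.49 ± 0.26 SE, edgeR adjusted p = 6.11e-07). Tnfrsf9 (4-1BB) differed by 5.46 ± 0.40 (SE, edgeR adjusted p = 1.19e-05), Cd70, the ligand of CD27, by 5.44 ± 0.45 (SE, edgeR adjusted p = 2.37e-05), and the self-ligand Slamf1 by 5.39 ± 0.35 (SE, edgeR adjusted p = 5.55e-06). For these 4 no migratory sum overlapped a non-migratory one. Cd70 stood at only 4.93 to 18.5 CPM in migratory cells. The lower members included Havcr2, encoding TIM-3 (-1.80 ± 0.22 SE, edgeR adjusted p = 0.000237), Vsir, encoding VISTA (-0.97 ± 0.19 SE, edgeR adjusted p = 0.00316), Btla (-1.22 ± 0.27 SE, edgeR adjusted p = 0.00556) and Cd24a (-2.33 ± 0.24 SE, edgeR adjusted p = 8.39e-05). Against cDC1 cells Btla and Cd24a stood at -1.89 and -3.09, and against cDC2 cells at 0.71 and 0.56, neither past the threshold in the latter.

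NF-kB genes moved in 1 direction. Of 29 tested, 21 were higher and 0 lower by edgeR's quasi-likelihood test, with a median of 1.13. Lower members were also 0 at an unadjusted p below 0.05 and 0 by DESeq2. Against cDC2 cells alone 13 were higher and 1 lower, and against cDC1 cells alone 28 were higher. Relb, the subunit that pairs with processed p100, stood at 1118, 1033, 1110, 717, 464 and 592 CPM in migratory and 112, 113, 104, 104, 127 and 129 in non-migratory cells. The gates did not overlap and differed by 2.81 ± 0.23 (SE, edgeR adjusted p = 2.09e-05). With thinning, Relb was found in 89.8% and 28.7% of cells (unthinned 98.1% and 60.2%). Nfkb2, whose promoter is shown above, was 135, 118, 128, 91.4, 64.1 and 89.7 against 40.5, 34.9, 32.3, 29.1, 33.8 and 32.3 CPM (1.63 ± 0.15 SE, edgeR adjusted p = 4.25e-05). Rel was 979, 1034, 1254, 3450, 3842 and 3380 against 319, 305, 386, 1793, 2185 and 1989 CPM (1.27 ± 0.17 SE, edgeR adjusted p = 0.000328), with the non-migratory level of hashtags 6, 8 and 9 above the migratory level of hashtags 2, 4 and 5. Birc2, encoding the ubiquitin ligase cIAP1, led the list by 2.90 ± 0.27 (SE, edgeR adjusted p = 4.44e-05). Traf1 differed by 2.21 ± 0.21 (SE, edgeR adjusted p = 5.18e-05) and Traf3 by 1.94 ± 0.18 (SE, edgeR adjusted p = 4.58e-05). Of the inhibitors, Nfkbia differed by 1.18 ± 0.15 (SE, edgeR adjusted p = 0.000283) and Tnfaip3 by 1.01 ± 0.28 (SE, edgeR adjusted p = 0.017). Against cDC2 cells these 2 were 0.71 and 0.36, and neither passed (edgeR adjusted p = 0.0508 and 0.53). Tnfaip3 also lost the call without hashtag 5. Rel, Nfkbia, Tnfaip3 and Traf2 (1.13, lower in hashtag 8) were named for their promoters, after their values were seen.

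Genes that damp cytokine signals or are linked to tolerance gave the highest median of all lists, 1.94, with 15 of 23 higher and 3 lower. Socs2, a feedback inhibitor of JAK-STAT signalling, was 654, 706, 624, 462, 78.9 and 269 CPM in migratory cells and 5.79, 3.84, 3.25, 2.74, 3.53 and 4.00 in non-migratory cells. That is 106-fold on the fitted scale, or 6.73 ± 0.41 (SE, edgeR adjusted p = 3.58e-06), and the lowest migratory sum, that of hashtag 8, lay far above the highest non-migratory one. In near-empty droplets Socs2 stood at 48.2 CPM, above every non-migratory sum. Thinned cells held a UMI in 70.3% of migratory and 1.43% of non-migratory cells (unthinned 87.8% and 4.65%). By hashtag the thinned shares were 28.6% to 79.8% and 1.14% to 1.99%. Il4i1, a secreted enzyme that degrades aromatic amino acids, was 934, 962, 1023, 413, 163 and 326 CPM against 25.2, 32.1, 22.9, 8.98, 8.91 and 8.00 (5.14 ± 0.20 SE, edgeR adjusted p = 6.11e-07). Adora2a, a receptor for adenosine, was 98.6 to 202 against 2.35 to 4.67 CPM (5.45 ± 0.21 SE, edgeR adjusted p = 6.11e-07). Entpd1, which encodes CD39, an enzyme of the path that makes adenosine, was lower (-1.79 ± 0.17 SE, edgeR adjusted p = 5.47e-05).

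Aldh1a2 and Itgb8 are known for the support that gut DCs give to regulatory T cells. Aldh1a2 encodes RALDH2, which makes retinoic acid. It stood at 155, 214, 184, 100.1, 44.4 and 51.0 CPM in migratory and 3.73, 3.07, 9.39, 15.6, 16.1 and 16.8 in non-migratory cells, without overlap (3.59 ± 0.61 SE, edgeR adjusted p = 0.0015). Itgb8, part of the integrin that activates TGF-beta, was 95.3, 132, 166, 24.7, 0 and 12.2 against 0.747, 0.192, 0.180, 1.20, 1.49 and 0.750 CPM (5.98 ± 0.76 SE, edgeR adjusted p = 0.000273). Hashtag 8 held no Itgb8 UMI in its 14 migratory cells, and thinned cells with a UMI were 14.3% and 0.287% (unthinned 21.0% and 1.05%). By hashtag the thinned shares were 0% to 19.5% and 0% to 0.619%. For both genes hashtags 2, 4 and 5 had the larger levels in migratory cells. Tgfbi, a matrix protein induced by TGF-beta, was lower (-3.71 ± 0.33 SE, edgeR adjusted p = 3.54e-05).

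Most class II presentation genes fell against the whole gate. Of 17 tested, 12 were lower and 2 higher, with a median of -0.66. Against cDC2 cells alone 8 of 17 were lower and 1 higher, and against cDC1 cells alone 11 and 5. In cells of 3000 to 15000 UMIs 8 were lower and 2 higher. H2-Aa, the alpha chain of I-A, was 2177, 2407, 2873, 6003, 6816 and 6503 CPM in migratory and 3070, 3368, 3596, 7645, 8205 and 7781 in non-migratory cells. It was lower in 6 of 6 pairs by a small step (-0.36 ± 0.08 SE, edgeR adjusted p = 0.00545). The call was lost without hashtag 2 (edgeR adjusted p = 0.0511) and against cDC2 cells (edgeR adjusted p = 0.0596). It was also lost in cells of 3000 to 15000 UMIs (-0.26, edgeR adjusted p = 0.138). Ciita, the master activator of class II genes, was 147, 123, 131, 129.7, 153 and 151 against 386, 429, 350.2, 187, 214 and 188 CPM and did not overlap (-1.01 ± 0.22 SE, edgeR adjusted p = 0.00476). In hashtags 6, 8 and 9 alone the difference was -0.36 and did not pass (edgeR adjusted p = 0.138). Its non-migratory level was higher in hashtags 2, 4 and 5, while the migratory level was alike in all 6. March1 encodes the ubiquitin ligase that sends surface class II and CD86 to degradation. It stood at 13.3, 10.1, 11.7, 18.5, 19.7 and 31.6 CPM against 398, 388, 385, 138, 148 and 127, the steepest fall of the list (-3.98 ± 0.47 SE, edgeR adjusted p = 0.000181). H2-DMb1 (-1.83) and H2-Ob (-1.91), which catalyse and restrain peptide loading, fell as well (edgeR adjusted p = 0.000389 and 0.00166). H2-Eb2 was the main exception, at 145, 143, 179, 232, 108 and 227 against 31.7, 35.3, 33.8, 8.98, 6.68 and 7.25 CPM (3.30 ± 0.45 SE, edgeR adjusted p = 0.000402). In hashtags 6, 8 and 9 alone 6 members of the list were lower and 2 higher.

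Class I presentation moved the other way, with 15 of 22 higher, 2 lower and a median of 1.11. Nlrc5, the activator of class I genes and counterpart of Ciita, was 311, 332, 368, 152, 153 and 96.8 CPM against 61.8, 63.4, 49.8, 17.7, 12.4 and 13.8 (2.82 ± 0.18 SE, edgeR adjusted p = 5.57e-06), with no overlap. The non-classical chains H2-Q7 (2.86 ± 0.29 SE, edgeR adjusted p = 7.54e-05) and H2-Q6 (2.78 ± 0.17 SE, edgeR adjusted p = 4.28e-06) rose, as did Tapbpl, a peptide editor (2.15 ± 0.28 SE, edgeR adjusted p = 0.000328). H2-Q6 and H2-Q7 are close copies, so counting may have split their reads. The 2 lower members were chaperones of the loading complex, Pdia3 (-0.97 ± 0.12 SE, edgeR adjusted p = 0.000253) and Calr (-0.43 ± 0.12 SE, edgeR adjusted p = 0.019). Calr lost its call without hashtag 2, 4 or 5. Against cDC2 cells these were -0.16 and 0.17, neither past the threshold.

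Receptors that guide movement, with Ccr7 left aside, were 6 higher and 8 lower of 20, which became 2 and 8 of 18 against cDC2 cells alone and 9 and 6 of 17 against cDC1 cells alone. Ccr2, which responds to inflammatory chemokines, was 1.48, 2.40, 0.868, 2.47, 0 and 16.3 CPM in migratory cells against 92.6, 137, 120.2, 63.1, 39.4 and 52.6 (-4.68 ± 0.61 SE, edgeR adjusted p = 0.000306). Cxcr3, another receptor of inflammatory chemokines, was 0 to 3.06 CPM in migratory and 12.9 to 18.2 in non-migratory cells (-4.21 ± 0.45 SE, edgeR adjusted p = 0.000107). Ccr9, the gut-homing receptor, differed by -2.30 ± 0.33 (SE, edgeR adjusted p = 0.000538), and by -0.65 against cDC2 cells, which did not pass (edgeR adjusted p = 0.307). Ptger2, a receptor for prostaglandin E2, had 2 UMIs in all migratory cells and 195 in non-migratory ones. Cxcr3 (-4.94 against cDC1 cells) and Ptger2 had too few counts to be tested against cDC2 cells alone. Ptger4, another prostaglandin E2 receptor, was higher, at 179, 156, 190.0, 344, 276 and 319 against 31.5, 21.1, 30.7, 231, 226 and 237 CPM (1.54 ± 0.40 SE, edgeR adjusted p = 0.0122). Plxnc1, a semaphorin receptor, rose in all pairs (1.80 ± 0.15 SE, edgeR adjusted p = 2.3e-05). Cxcr5, which follows CXCL13 to B cell follicles, rose by 2.26 ± 0.41 (SE, edgeR adjusted p = 0.00199) at 4.43 to 13.6 CPM. Against cDC2 cells Ptger4 (1.24, edgeR adjusted p = 0.0934) and Cxcr5 (1.43, edgeR adjusted p = 0.0539) did not pass. S1pr1, the receptor for sphingosine 1-phosphate, rose by 4.50 ± 0.67 (SE, edgeR adjusted p = 0.000697) at no more than 9.61 CPM and with no UMI in hashtag 8.

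Cytoskeletal genes were 17 higher and 10 lower of 44. Marcksl1, an actin-binding membrane protein, was 596, 680.5, 637, 518, 488 and 318 CPM against 33.2, 38.8, 35.7, 42.9, 45.3 and 42.9 (3.73 ± 0.20 SE, edgeR adjusted p = 2.28e-06). Samsn1, an adaptor that shapes membrane ruffles, was 1579 to 2307 against 92.1 to 441 CPM (3.23 ± 0.34 SE, edgeR adjusted p = 9.05e-05). Rhoc, a small GTPase of motility, differed by 4.21 ± 0.52 (SE, edgeR adjusted p = 0.000227), and Cdc42ep3, an effector of CDC42, by 2.54 ± 0.22 (SE, edgeR adjusted p = 3.12e-05). Among the lower ones were Myo1f, a membrane-bound myosin (-2.79 ± 0.53 SE, edgeR adjusted p = 0.00251), the scaffold Iqgap2 (-2.72 ± 0.38 SE, edgeR adjusted p = 0.000444), the actin regulator Hcls1 (-1.496 ± 0.24 SE, edgeR adjusted p = 0.00108) and Tiam1, an activator of RAC1 (-1.41 ± 0.17 SE, edgeR adjusted p = 0.000238).

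Adhesion molecules and matrix enzymes were split, 12 higher and 12 lower of 36, with 19 higher and 8 lower of 34 against cDC1 cells alone. Mmp25, a membrane-anchored metalloproteinase, was 96.8, 131, 96.3, 195, 138 and 142 CPM against 1.87, 1.15, 1.44, 7.66, 6.50 and 3.50 (5.34 ± 0.29 SE, edgeR adjusted p = 2.06e-06), and Mmp23 followed (4.04 ± 0.23 SE, edgeR adjusted p = 2.51e-06). L1cam, an adhesion molecule, rose by 2.55 ± 0.30 (SE, edgeR adjusted p = 0.000169). Of the integrins, Itgal, the alpha chain of LFA-1, fell by 3.29 ± 0.25 (SE, edgeR adjusted p = 1.56e-05) and Itgb7, the beta chain of the gut-homing integrins, by 2.52 ± 0.30 (SE, n = 6 pairs; edgeR adjusted p = 0.000198).

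Uptake receptors fell against the whole gate, with 18 of 29 lower, 4 higher and a median of -1.31. This count depended on the subset of non-migratory cells. Against cDC2 cells 19 of 27 were lower and 1 higher (median -1.99), and against cDC1 cells 5 of 21 were lower and 12 higher (median 1.45). Clec12a, an inhibitory lectin, fell in both (-2.90 ± 0.27 SE, edgeR adjusted p = 4.13e-05 against the whole gate, -1.27 against cDC2 and -3.53 against cDC1 cells). Fcgr2b, the inhibitory Fc receptor, was 2.22, 5.29, 5.21, 7.41, 9.86 and 20.4 CPM against 31.5, 38.8, 29.2, 31.0, 30.6 and 34.3 (-2.20 ± 0.34 SE, edgeR adjusted p = 0.000841), and Scarb1, a scavenger receptor, fell by 2.21 ± 0.33 (SE, edgeR adjusted p = 0.000721). Cd36, a scavenger receptor of cDC1, was -2.01 against the whole gate but 0.63 against cDC2 cells. Ly75, which encodes the endocytic receptor DEC-205, was 1 of the 4 higher members. It rose from 52.3, 56.2, 46.0, 87.9, 83.4 and 73.6 to 324, 340.5, 390.4, 634, 306 and 624 CPM (2.70 ± 0.18 SE, edgeR adjusted p = 6.09e-06), and against each subset alone.

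Sensors of microbial products and their adaptors were 3 higher and 10 lower of 30, and against cDC1 cells alone 8 higher and 10 lower of 26. Tlr3, which senses double-stranded RNA in cDC1, stood at 0.739, 5.77, 3.47, 4.94, 0 and 5.10 CPM against 102, 102, 107, 127, 105 and 97.3 (-4.81 ± 0.29 SE, edgeR adjusted p = 3.63e-06), and at -0.97 against cDC2 cells (edgeR adjusted p = 0.0828). Tlr11 was -1.75 against the whole gate and 0.38 against cDC2 cells. Tlr12, another receptor of cDC1, was -2.76 (edgeR adjusted p = 0.000458). It stood at -3.50 against cDC1 cells and had too few counts to be tested against cDC2 cells. Myd88, the adaptor that most of these receptors share, fell with similar values against both subsets (-1.47 ± 0.27 SE, edgeR adjusted p = 0.00205; -1.49 against cDC2 and -1.48 against cDC1 cells).

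Lysosomal genes were 10 higher and 12 lower of 34, and against cDC1 cells alone 18 higher and 11 lower. Cd63, a tetraspanin of late endosomes, was the steepest riser, at 560.2, 575, 588, 448, 281 and 341 CPM against 4.29, 4.99, 5.60, 9.42, 13.7 and 9.17 (5.92 ± 0.39 SE, edgeR adjusted p = 5.86e-06). Lamp1, a membrane protein of lysosomes, rose too (2.21 ± 0.26 SE, edgeR adjusted p = 0.000159), and so did Cstb, an inhibitor of cathepsins (1.495 ± 0.26 SE, edgeR adjusted p = 0.00166), and the protease Lgmn (1.45 ± 0.34 SE, edgeR adjusted p = 0.00702), whose call was lost against cDC2 cells. Psap, the precursor of the saposins that help degrade lipids, was 297, 272, 314, 347, 567 and 413 against 1186, 1269, 1271, 1909, 1812 and 1815 CPM (-2.09 ± 0.12 SE, edgeR adjusted p = 3.4e-06). Ctse, an aspartic protease of endosomes (-3.94 ± 0.34 SE, edgeR adjusted p = 3.08e-05), and Cd68 (-1.56 ± 0.22 SE, edgeR adjusted p = 0.00049) fell as well.

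Of 55 transcription factors 21 were higher and 14 lower, and against cDC2 cells alone 14 of 52 were higher and 16 lower. Ikzf4, of the Ikaros family, was 40.6, 52.4, 45.1, 16.1, 19.7 and 20.4 CPM against 0.187, 0.576, 0.542, 0.219, 0.743 and 0.333 (6.12 ± 0.30 SE, edgeR adjusted p = 1.38e-06). Stat4, Spib and Etv3 rose by 2.46, 2.88 and 2.23 (edgeR adjusted p = 1.23e-05, 0.00179 and 0.00421). Mycl (-3.75 ± 0.31 SE, edgeR adjusted p = 2.65e-05) and Myc (-2.91 ± 0.46 SE, edgeR adjusted p = 0.000916), related growth regulators, fell, and Bcl11a fell by 1.82 ± 0.34 (SE, edgeR adjusted p = 0.00248).

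The 2 factors that set DC subsets depended on the subset compared. Irf4, needed for cDC2 function, was 68.0, 75.02, 72.0, 146, 98.6 and 184 CPM in migratory and 29.1, 32.4, 30.0, 152, 251 and 213 in non-migratory cells. It did not pass against the whole gate (0.39 ± 0.33 SE, edgeR adjusted p = 0.36), rose by 2.79 against cDC1 cells (edgeR adjusted p = 1.65e-06) and stood at -0.58 against cDC2 cells (edgeR adjusted p = 0.239). Irf8, needed for cDC1, was 107, 128, 115, 216, 49.3 and 75.4 against 679.8, 678, 786, 891, 705 and 719 CPM. It fell against the whole gate (-2.76 ± 0.21 SE, edgeR adjusted p = 1.54e-05) and against cDC1 cells (-3.59), and was higher than in cDC2 cells by 2.24 (edgeR adjusted p = 0.000316). The migratory sums thus held Irf8 at a level between the 2 non-migratory subsets.

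**Figure D5:**
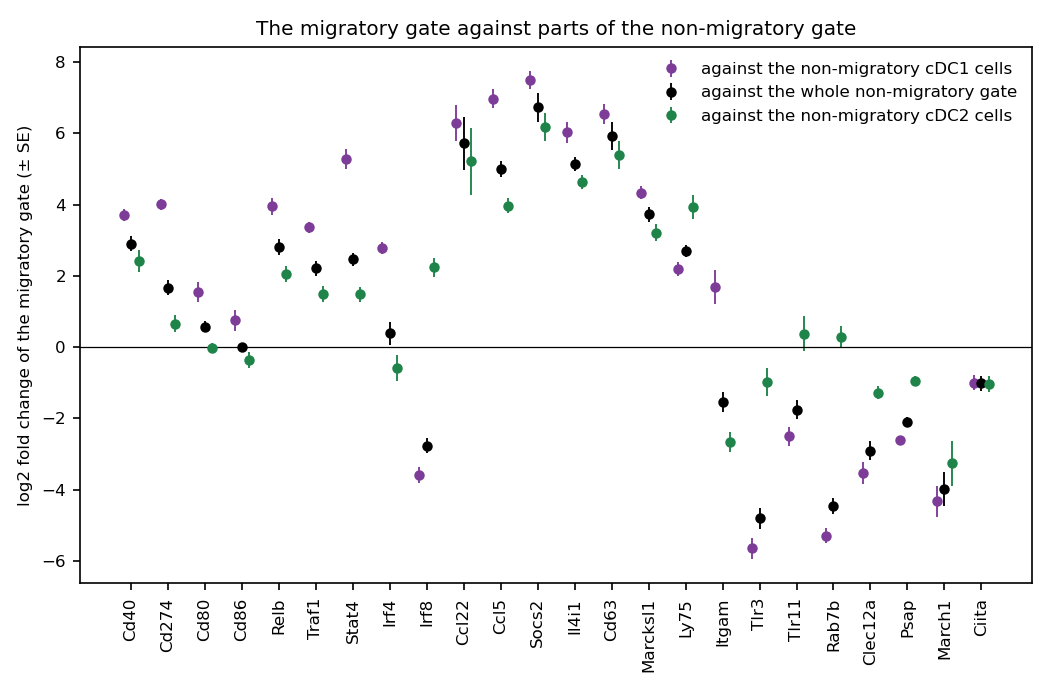
Log2 fold change (± SE derived from the F statistic of the fit of 6 pairs) of the migratory gate against all 3228 non-migratory cells, the 1342 cDC1 cells and the 1328 cDC2 cells among them, for 24 genes. Socs2, Il4i1, Cd63, Ccl22 and Ccl5 lie above 3 in each, Ciita and March1 below -0.9 in each, while Irf8, Itgam, Tlr11 and Rab7b change sign between subsets.

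Subset genes other than those that set the gates followed this. Of 19 cDC1 genes 17 were lower and 2 higher; against cDC2 cells alone 3 of 16 were lower and 6 higher. Rab7b, a small GTPase, was -4.46 against the whole gate and 0.29 against cDC2 cells. Gcsam was at 0 to 1.24 CPM in migratory against 12.1 to 65.0 in non-migratory cells (-6.15 ± 0.33 SE, edgeR adjusted p = 2.06e-06). It stood at -6.95 against cDC1 cells and had too few counts to be tested against cDC2 cells. Id2, an inhibitor of transcription factors, was higher (0.71 ± 0.15 SE, edgeR adjusted p = 0.004), and did not pass against cDC1 cells (0.48, edgeR adjusted p = 0.0565). Of 24 cDC2 genes 13 were lower and 4 higher; against cDC1 cells alone 4 of 22 were lower and 12 higher. Itgam, encoding CD11b, was -1.54 against the whole gate, -2.66 against cDC2 and 1.69 against cDC1 cells. The neighbours Tmem176a (3.52 ± 0.16 SE, edgeR adjusted p = 1.11e-06) and Tmem176b (2.94 ± 0.14 SE, edgeR adjusted p = 1.11e-06) rose against both subsets, by 2.50 and 1.90 over cDC2 cells. S100a4, a calcium-binding protein, rose against the whole gate (1.85 ± 0.35 SE, edgeR adjusted p = 0.00262) and did not pass against cDC2 cells (0.78).

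Cytokine receptors were 12 higher and 9 lower of 36, with 8 higher and 10 lower of 34 against cDC2 cells alone. Il15ra, which presents IL-15 to neighbouring cells, was 269.8, 225, 213, 124, 24.7 and 42.8 CPM against 9.33, 10.8, 8.30, 1.97, 3.90 and 5.42 (4.38 ± 0.38 SE, edgeR adjusted p = 3.07e-05). Il2ra, encoding CD25, was 123, 103, 109, 72.9, 14.8 and 28.5 against 1.31, 0.960, 1.08, 3.17, 5.57 and 7.25 CPM (4.59 ± 0.69 SE, edgeR adjusted p = 0.000735). Il21r rose by nearly the same step in all hashtags (3.25 ± 0.14 SE, edgeR adjusted p = 6.39e-07). Tnfrsf11a, the receptor RANK, rose by 2.68 ± 0.38 (SE, edgeR adjusted p = 0.000542). The chains Il6ra (-2.18 ± 0.25 SE, edgeR adjusted p = 0.000163), Ifngr1 (-2.04 ± 0.24 SE, edgeR adjusted p = 0.00018) and Tgfbr2 (-0.91 ± 0.15 SE, edgeR adjusted p = 0.00133) fell.

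Survival genes were 14 higher and 4 lower of 23. Bcl2l1, which encodes the anti-apoptotic BCL-XL, was 163, 222, 152, 244.6, 261 and 219 CPM against 14.9, 13.8, 11.4, 109, 134 and 118 (2.34 ± 0.49 SE, edgeR adjusted p = 0.00442). Against cDC2 cells it stood at 1.81 and did not pass (edgeR adjusted p = 0.0504). Serpinb6b (3.34 ± 0.81 SE, edgeR adjusted p = 0.00888) and Serpinb9b (6.51 ± 0.73 SE, edgeR adjusted p = 0.000132), serine protease inhibitors of 1 family, rose. Serpinb9b had no UMI in the migratory cells of hashtag 8. Ripk3, a kinase of necroptosis, fell by 2.88 ± 0.57 (SE, edgeR adjusted p = 0.00316), at no more than 2.04 CPM in migratory cells. It stood at -3.36 against cDC1 cells and had too few counts to be tested against cDC2 cells.

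Cell cycle genes were 21 lower and 3 higher of 34, with a median of -1.11. Rrm2, a subunit of the enzyme that makes deoxynucleotides, was 2.22, 1.92, 1.30, 0, 0 and 4.08 CPM against 18.9, 14.6, 23.3, 10.6, 6.31 and 12.2 (-3.14 ± 0.40 SE, edgeR adjusted p = 0.00027), Stmn1 differed by -2.07 ± 0.33 (SE, edgeR adjusted p = 0.000955) and the cyclin Ccna2 by -2.33 ± 0.43 (SE, edgeR adjusted p = 0.00228). Cdkn1a, which encodes the cell cycle inhibitor p21, was 91.7, 133, 107, 192, 163 and 141 against 6.91, 5.38, 5.60, 43.4, 66.5 and 51.1 CPM (2.84 ± 0.47 SE, edgeR adjusted p = 0.0012), and Ccnd2, cyclin D2, rose by 1.94 ± 0.29 (SE, edgeR adjusted p = 0.00064). The count differed by hashtag: 30 were lower of 34 in hashtags 2, 4 and 5 alone and 5 of 33 in hashtags 6, 8 and 9 alone, a difference that was not tested. Over all genes 3642 of 11569 and 1171 of 10804 were lower in these 2 fits, so the second count lay near the share over all genes. The count of lower members fell to 12, 11 and 12 without hashtag 2, 4 or 5. Over all genes these fits gave 1855 of 11781, 1835 of 11804 and 1779 of 11763 lower. Without cells that held Mki67 or Top2a, 9 of 24 were lower, in a fit that also lacks hashtag 8. Leaving out hashtag 8 alone gave 22 of 34 lower. With cells thinned to 3000 UMIs, 7.26% against 26.4%, 7.87% against 19.7% and 7% against 21.1% of cells held a UMI of Mki67 or Top2a in the migratory and non-migratory gates of hashtags 2, 4 and 5. In hashtags 6, 8 and 9 the shares were 16.1% against 17.0%, 35.7% against 20.0% and 25.0% against 19.8%. The unthinned shares were higher in the migratory gate in all 3 of these hashtags, while the thinned share of hashtag 6 was not.

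Interferon-stimulated genes were 13 higher and 1 lower of 34, with a median of 0.29. Without cells holding Mki67 or Top2a 9 of 29 were higher and 5 lower, with a median of -0.07. That fit rests on 5 hashtags and also lacks hashtag 8. Leaving out hashtag 8 alone gave 11 higher and 4 lower of 34, with a median of 0.11. Gbp2 and Gbp5 encode guanylate-binding proteins of the response to interferon-gamma. Gbp2 was 106, 146, 141, 98.8, 104 and 33.6 CPM against 3.55, 3.07, 3.43, 3.29, 5.01 and 6.25 (4.58 ± 0.39 SE, edgeR adjusted p = 2.76e-05), and Gbp5 differed by 3.70 ± 0.31 (SE, edgeR adjusted p = 2.73e-05). Isg15, a ubiquitin-like protein, was 141, 138, 189.6, 148, 281 and 42.8 against 21.5, 15.0, 19.9, 26.3, 33.6 and 34.9 CPM (2.56 ± 0.36 SE, edgeR adjusted p = 0.000466). Rsad2, encoding viperin, reached 296 CPM in hashtag 8 and 7.21 to 42.1 in the others (3.44 ± 0.62 SE, edgeR adjusted p = 0.00198).

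Sterol genes were 8 higher and 4 lower of 30, and against cDC2 cells alone 3 higher and 2 lower. Idi1, an enzyme of the mevalonate pathway, was 253, 246, 227, 145, 83.8 and 136 CPM against 36.6, 22.5, 27.6, 66.2, 59.4 and 72.8 (2.03 ± 0.41 SE, edgeR adjusted p = 0.00345). Mvd (1.05) and Cyp51 (1.04), 2 further enzymes of cholesterol synthesis, were called too, but lost the call in hashtags 6, 8 and 9 alone and against cDC2 cells, and Cyp51 also without hashtag 2, 4 or 5. Soat1, which esterifies cholesterol, fell by 0.85 ± 0.13 (SE, edgeR adjusted p = 0.00094). Genes of glycolysis and respiration were 3 higher and 13 lower of 35, and against cDC2 cells alone 3 higher and 8 lower of 33. Pfkfb3, which makes the activator of phosphofructokinase, was 616, 548, 574, 282, 158 and 196 CPM against 77.3, 76.6, 75.5, 59.0, 63.9 and 57.9 (2.38 ± 0.24 SE, edgeR adjusted p = 7.4e-05), and the transporter Slc2a6 rose by 2.51 ± 0.36 (SE, edgeR adjusted p = 0.000545). Ldha, which turns pyruvate into lactate, fell from 123, 127, 150.4, 243, 212 and 217 to 39.9, 31.3, 32.1, 81.5, 153 and 112 CPM (-1.498 ± 0.23 SE, edgeR adjusted p = 0.00071), and the hexokinases Hk2 (-1.47) and Hk3 (-2.38) were lower too (edgeR adjusted p = 0.000269 and 0.000957). Hk2 did not pass against cDC1 cells (-0.73, edgeR adjusted p = 0.139). Hk3 stood at -3.01 against cDC1 cells and had too few counts to be tested against cDC2 cells.

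Outside all lists, the steepest risers with the same sign in 6 pairs included genes known mainly from other tissues. Lad1, an anchoring-filament protein of epithelia, was 104, 159, 145, 101, 78.9 and 108 CPM against 1.68, 0.960, 1.44, 0.876, 1.49 and 1 (6.54 ± 0.22 SE, edgeR adjusted p = 4.32e-07). Dscaml1, a neuronal adhesion molecule, was 840.3, 571, 801, 200.2, 74.0 and 69.3 against 2.80, 2.50, 4.15, 2.08, 2.41 and 6.00 CPM (6.53 ± 0.66 SE, edgeR adjusted p = 7.55e-05). Dkk2, a secreted modulator of WNT signalling, differed by 6.46 ± 0.37 (SE, edgeR adjusted p = 2.51e-06), Grid1, a glutamate receptor subunit, by 7.07 ± 0.76 (SE, edgeR adjusted p = 0.000105), and Ndnf, a secreted neuronal factor, by 6.29 ± 0.33 (SE, edgeR adjusted p = 1.61e-06). Grid1 ranged from 2.60 CPM in hashtag 5 to 212 in hashtag 6. Nudt17 (6.76), Ankrd33b (6.45), Atxn1 (6.33) and the non-classical class I gene H2-M2 (6.27) were in the same range, with edgeR adjusted p values of 3.59e-06, 8.56e-06, 9.73e-06 and 2.06e-06. Epithelial markers summed to 10.8 to 104 CPM in migratory and 8.06 to 87.9 in non-migratory cells, and Cldn7 was at 0 in migratory cells.

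The steepest falls outside the lists were Itga8, an integrin chain (-6.01 ± 0.56 SE, edgeR adjusted p = 4.58e-05), Cacna1e, a calcium channel subunit (-5.14 ± 0.36 SE, edgeR adjusted p = 9.73e-06), and Clnk, a signalling adaptor (-4.76 ± 0.46 SE, edgeR adjusted p = 5.35e-05). Against cDC1 cells alone they stood at -6.87, -5.98 and -5.59. All of them had too few counts to be tested against cDC2 cells alone, so a fall relative to cDC2 cells is not shown. Itga8 stood at 0, 0, 0.868, 3.71, 0 and 2.04 CPM in migratory and 91.3, 82.2, 64.5, 35.4, 39.0 and 29.9 in non-migratory cells. Plce1 (-4.63) and the nucleotide-sugar receptor P2ry14 (-4.45) lost their calls against cDC2 cells (-1.49 and -0.20), and Gpr141b, -3.29 against the whole gate, was 2.05 there. Cacnb2 (-4.28), Wdfy2 (-3.53), Rasgrp4 (-3.32) and Slco3a1 (-3.24) fell against both subsets. Against cDC2 cells these 4 stood at -3.12, -3.72, -2.85 and -1.19.

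The size of the step differed between hashtags for many of these genes, which was not tested as a difference. Fits of hashtags 2, 4 and 5 alone and of hashtags 6, 8 and 9 alone gave Ccl22 as 7.69 and 4.06, Itgb8 as 8.33 and 3.75, Aldh1a2 as 5.08 and 2.11, and Serpinb6b as 5.44 and 1.40. Cd83 was 1.97 and 0.06, and Irf4 1.24 and -0.33. Other genes gave nearly the same value in both: Lad1 6.60 and 6.59, Il4i1 5.19 and 5.22, Il21r 3.17 and 3.43, and Psap -2.08 and -2.03. The first 3 hashtags held 508 migratory cells and the other 134, so the second set of values rests on fewer cells. In hashtags 6, 8 and 9 alone H2-Aa, Btla, Vsir, Calr, Il23a, Tnfaip3, Traf2, Ripk3, Bcl11a and Ccna2 also missed the threshold.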

How the data were processed

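Single-cell RNA of sorted DCs was captured in droplets (Chromium 3' v3, from the labels), giving a gene expression and a hashtag library. The authors deposited raw UMI counts per gene and barcode, made with Cell Ranger 8.0.1 on mm10, per the submitters' processing notes; introns and strand are not given in the sources used here. The deposited assignment table gives each barcode a hashtag and an assignment probability as a fraction. Of 19239 barcodes with 1 hashtag, 1294 had under 500 genes and 3627 over 10% mitochondrial UMIs, and 15480 passed both filters. No barcode was repeated. The 4815 multiplet barcodes, 346 of which met the migratory gate, 1706 blank and 1919 unassigned barcodes were not used; doublets within a hashtag cannot be seen this way.

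Counts were summed per gate and hashtag (12 libraries of 212371 to 13961691 UMIs) and fitted with edgeR 4.0.16 in R 4.3.3 (quasi-likelihood test, TMM, filterByExpr), with hashtag as a block, since both gates of a hashtag come from the same replicate, per the labels. The fit tested 12034 genes with 5 residual degrees of freedom; 21 genes, those that set the gates and mitochondrial genes, were not counted. Adjusted p values are Benjamini-Hochberg values over all genes tested, and a call is an adjusted p below 0.05. They measure the spread between these replicates. On simulated counts of 11277 genes, 56.0% of 2-fold and 98.0% of 4-fold changes were recovered. The simulation used 1 mean profile for all libraries and 1 dispersion for all genes, and changed only genes with at least 100 UMIs. It held no hashtag effect and no step that differed between hashtags, so these rates may not hold for the real data. Alternatives included DESeq2 1.42.0. Shares of cells used counts thinned to 3000 UMIs; intervals cover counting error only. Free RNA is the sum of barcodes with at most 100 UMIs outside the table.

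The members and the 22 lists (678 genes) were chosen with earlier results of these data known. Of the list genes 672 had a feature and 617 were tested. Named are 21 chosen genes, from each list up to 4 called members per direction with the largest change and 1 sign in 6 pairs, and the 10 highest and 10 lowest other genes of an average log2 CPM of at least 5; not all are printed, and some results on single genes are not reported here.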

Additional observations from a re-analysis of the deposited data

Results flagged for a closer look

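In 15 of 165 sets of 6 values, 1 hashtag lay far from the other 5 by Dixon's test. All 15 were sets of paired log2 differences (migratory minus non-migratory, with 0.5 UMIs added). The 165 also held the share of cells, median UMIs and median mitochondrial percentage of each gate, of which none was flagged. Chance gives about 1 in 20 sets, or 5%. Hashtag 8, with 14 migratory cells, was the one apart for Flt3 (-0.99), H2-Q7 (0.43), Calr (-0.02), Lta (1.56, with no migratory UMI), Cd36 (-4.98), Lamp1 (0.63) and Tmem176b (2.46). The value of Lta there rests on the added 0.5 UMIs. Hashtag 6 was apart for Ccl5 (6.10), Tgfb2 (8.02, with no non-migratory UMI) and Tlr11 (-3.95). Hashtag 9 was apart for the interferon-linked genes Gbp2 (2.44) and Isg15 (0.31), for Hk2 (-0.58) and for Plce1 (-7.42). Hashtag 2 was apart for Cacnb2 (-6.13).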

How the results depend on the processing

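The 4 counts of called genes were recomputed under 22 other settings. Each is a separate fit with its own calls. Against 2275 higher genes in the reported fit, there were 1499 with cells thinned to 3000 UMIs, 3503 in hashtags 2, 4 and 5 alone and 1308 in hashtags 6, 8 and 9 alone. Against 2744 lower genes, there were 1796 thinned and 1171 in hashtags 6, 8 and 9 alone. Of the calls of these 3 fits 91.7%, 66.3% and 83.7% were also calls of the reported fit. At least 2-fold, these 3 hashtags gave 939 higher (1483 in all 6) and 684 lower (1567). Without the block that pairs the gates of a hashtag, 1669 genes were lower, 1032 of them at least 2-fold. Leaving out 1 hashtag gave 1614 to 2476 higher, 1779 to 2849 lower, 1210 to 1549 higher by 2-fold and 1151 to 1788 lower by 2-fold, with the fewest lower genes without hashtag 5. Scaling by total UMIs, added after seeing the data, made 35.6% of calls higher, and no low-count filter 36.2%, against 45.3%.

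Against cDC2 cells alone Cd80 (-0.016), Irf8 (2.24), Cd24a (0.56), Btla (0.71), Calr (0.17), Tlr11 (0.38), Cd36 (0.63), Rab7b (0.295) and Gpr141b (2.05) changed sign. Against cDC1 cells alone Tnfsf8 (0.42) and Itgam (1.69) did, and in cells of 3000 to 15000 UMIs Cd80 (-0.06) and Cd86 (-0.59). The cause was not tested, beyond the change of cells compared. The stricter migratory gate, cells of 3000 to 15000 UMIs and the fit without cycling cells rest on 5 hashtags, since 1 gate of the other held under 10 cells. Depth limits genes of low level in hashtag 8 in particular.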
